A study of Mus musculus with 8 samples.

Results

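The genes described here encode the pumps that move calcium out of the cytosol of mouse heart cells and the small peptides that restrain them. They are Atp2a1, Atp2a2 and Atp2a3, which encode the sarcoplasmic and endoplasmic reticulum pumps SERCA1, SERCA2 and SERCA3, Atp2b1 and Atp2b4, which encode the plasma membrane pumps PMCA1 and PMCA4, and Pln and Sln, which encode phospholamban and sarcolipin. They were picked by symbol, with the row of highest mean standing for a symbol, and are 7 of the 23206 gene symbols with values. Poly(A) RNA from frozen ventricles was sequenced in 8 strand-specific libraries from C57BL/6 mice at postnatal day 21. Of these, 4 libraries came from cardiac Med1 knockout mice (labelled Med1cKO, called knockout here) and 4 from mice that the labels call WT and the series' design text describes as Med1 fl/fl, with floxed Med1 alleles. Both groups thus share background strain, age and tissue. Med1 is a subunit of Mediator, which links transcription factors to RNA polymerase II. The sources used here name neither the promoter that drove the deletion nor whether a library came from 1 animal, so p-values measure the spread between these libraries.

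In each heartbeat calcium released from the sarcoplasmic reticulum triggers contraction, and relaxation needs that calcium to be pumped back. SERCA2a, a product of Atp2a2, does most of this in the rodent ventricle, while the sodium-calcium exchanger NCX1 (Slc8a1) and, to a smaller extent, the plasma membrane pumps expel calcium from the cell. Unphosphorylated phospholamban lowers the calcium affinity of SERCA, and phosphorylation by protein kinase A or CaMKII relieves this brake. Sarcolipin is a shorter relative found mainly in atria and skeletal muscle.

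The peptides are shown by their open reading frames, 5′ to 3′, since Pln and Sln are the smallest genes of the set and Pln had its steepest fall. Coding sequences are from GENCODE M21 on GRCm38 (mm10). Phospholamban is read from 159 bases in a single exon at chr10:53343864-53344022 on the plus strand, and its codons 16 and 17, for the serine and threonine that the kinases phosphorylate, are in capitals. Sarcolipin is read from 96 bases at chr9:53853473-53853568 on the plus strand. Myoregulin (Mrln), a SERCA inhibitor of skeletal muscle, is read from 141 bases at chr10:70219496-70219636 on the plus strand and is described with the partners.
Pln: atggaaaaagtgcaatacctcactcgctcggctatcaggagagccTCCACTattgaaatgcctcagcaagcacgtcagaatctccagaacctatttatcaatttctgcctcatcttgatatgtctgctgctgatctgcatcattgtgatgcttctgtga
Sln: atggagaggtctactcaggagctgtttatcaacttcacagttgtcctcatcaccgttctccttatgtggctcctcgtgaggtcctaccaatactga
Mrln: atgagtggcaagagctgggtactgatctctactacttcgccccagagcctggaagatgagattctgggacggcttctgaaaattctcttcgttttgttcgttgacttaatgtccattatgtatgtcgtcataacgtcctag
The frames hold 52, 31 and 46 codons before the stop, in the order Pln, Sln and Mrln.

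Values are FPKM (fragments counted per kilobase of a transcript, relative to all fragments of its library). Library sums ran from 481719 to 502629 FPKM in the knockout and from 507484 to 536174 FPKM in WT. Total fragments are unknown, but the step that 1 fragment makes at the bottom of the range put the libraries at 0.974 to 1.1 times the depth of knockout 1. Med1 itself was at 7.80, 8.37, 7.89 and 9.15 FPKM in the knockout libraries, against 15.5, 16.1, 10.6 and 16.8 FPKM in the WT libraries, all 4 knockout values lying below every WT value. Tests used limma on log2(FPKM + 1) over the 11975 genes that averaged 1 FPKM or more, with Benjamini-Hochberg adjustment over all of them and calls at an adjusted p under 0.05. The added 1 FPKM understates the change of genes with low levels. By this rule 44.9% of genes were higher and 16.4% lower in the knockout (61.3% in all). On the log2 scale the median gene was 0.25 higher in the knockout. After the libraries were rescaled by median of ratios, 27% were higher and 26.9% lower (53.9% in all). Of the 7 genes, 6 reached the minimum, 2 fell (Atp2a2 and Pln), 2 rose (Sln and Atp2b4) and 2 did not pass (Atp2a3 and Atp2b1). Sln reached the minimum through the knockout libraries alone, so that its difference was built into the selection and its call adds nothing to this count. After rescaling, Atp2b4 no longer passed. In FPKM as deposited, the 4 knockout libraries did not overlap the WT libraries in 4 of the 6 genes that reached the minimum, against 57.1% of all genes tested. Sln, whose difference was built into its selection, was among the 4, and Atp2a1, under the minimum, overlapped.

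**Figure D1:**
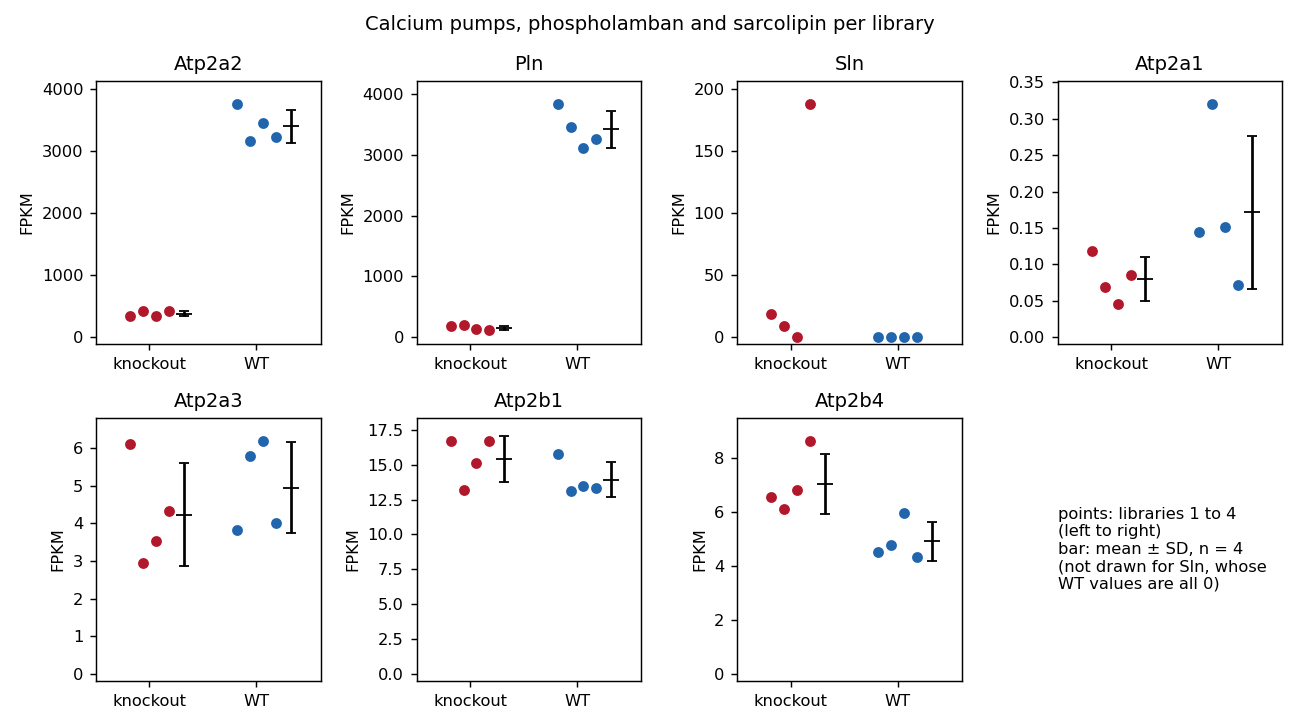
FPKM (linear axes, each gene on its own scale) of the 7 genes in the 4 knockout (red, left) and 4 WT (blue, right) libraries, with mean ± SD beside them except for Sln. Atp2a2 and Pln sit far below WT in every knockout library, Sln is 188 FPKM in knockout 4 and listed at 0 in all WT libraries, and Atp2a3 and Atp2b1 overlap between groups.

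Atp2a2 was the most abundant calcium pump gene in both groups and lost most of its message in the knockout. It was at 346, 417, 338 and 419 FPKM in the knockout libraries, against 3753, 3154, 3460 and 3224 FPKM in the WT libraries. The groups were far apart, and the spread within each was small beside the gap. Means were 380 ± 44.2 FPKM in the knockout and 3398 ± 270 FPKM in WT (SD, n = 4 each), so that the knockout held 11.2% of the WT level. The log2 change was -3.16 ± 0.103 (SE, limma adjusted p = 2.16e-07), and -3.44 after rescaling. Of the 11975 genes tested, 24 had a change as low or lower on the log2(FPKM + 1) scale, Atp2a2 included. That count leaves out rarer genes with larger folds, such as Myh7b, which fell 40.4 times, against 8.94 times for Atp2a2. Myh7b was at 0.154 to 0.391 FPKM in the knockout libraries, where values rest on few fragments, so that its fold is imprecise. By mean FPKM Atp2a2 held rank 215 among all symbols in the knockout and rank 15 in WT. The value is a total over the gene (chr5:122453513-122502225, mm10), so that the heart isoform SERCA2a and the ubiquitous isoform SERCA2b were not separated.

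Pln, the brake on that pump, fell further. It was at 179, 194, 134 and 119 FPKM in the knockout libraries and at 3831, 3466, 3117 and 3264 FPKM in the WT libraries. Every WT library was more than an order of magnitude above every knockout library. Means were 156 ± 35.7 FPKM in the knockout and 3420 ± 309 FPKM in WT (SD, n = 4 each), with 4.57% of the WT level left in the knockout. The change in log2 was -4.47 with an SE of 0.156 (limma adjusted p = 2.24e-07), and -4.75 after rescaling. On the log2(FPKM + 1) scale, only 5 of the 11975 genes, Pln among them, changed as far in that direction. The added 1 FPKM holds back rarer genes, so that some with larger folds rank behind Pln. Asb14, for example, fell 38.8 times, to a low level of 0.836 to 1.71 FPKM in the knockout libraries, against 21.9 times for Pln. Pln (chr10:53337686-53345999, mm10) held rank 511 in the knockout and rank 13 in WT. The authors' deposited table, which pools the libraries of a group, lists log2 changes of -4.73 for Pln and -3.44 for Atp2a2, both with a q-value of 2.11e-04.

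At the level of RNA, the balance of Pln to Atp2a2 therefore differed between the groups. Protein and phosphorylation were not measured here, and the Atp2a2 value pools SERCA2a with the ubiquitous SERCA2b. The FPKM ratio of Pln to Atp2a2 was 0.517, 0.465, 0.397 and 0.283 in the knockout libraries, against 1.02, 1.10, 0.901 and 1.01 in the WT libraries. In WT the levels of both genes were alike, within the spread between libraries, while Pln was well below Atp2a2 in each knockout library. The mean ratio was 0.415 ± 0.101 in the knockout and 1.01 ± 0.0815 in WT (SD, n = 4 each). On the log2 scale the ratio was lower by a difference of -1.31, a 2.48-fold change (exact two-sided permutation p = 0.0286, the smallest that 4 against 4 can give, and 0.0357 adjusted over the 5 ratios tested). A ratio within a library does not change with the scaling of that library. The knockout libraries varied more in it, with an SD of 0.379 in the knockout and 0.118 in WT on the log2 scale, and it was lowest in knockout 4.

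**Figure D2:**
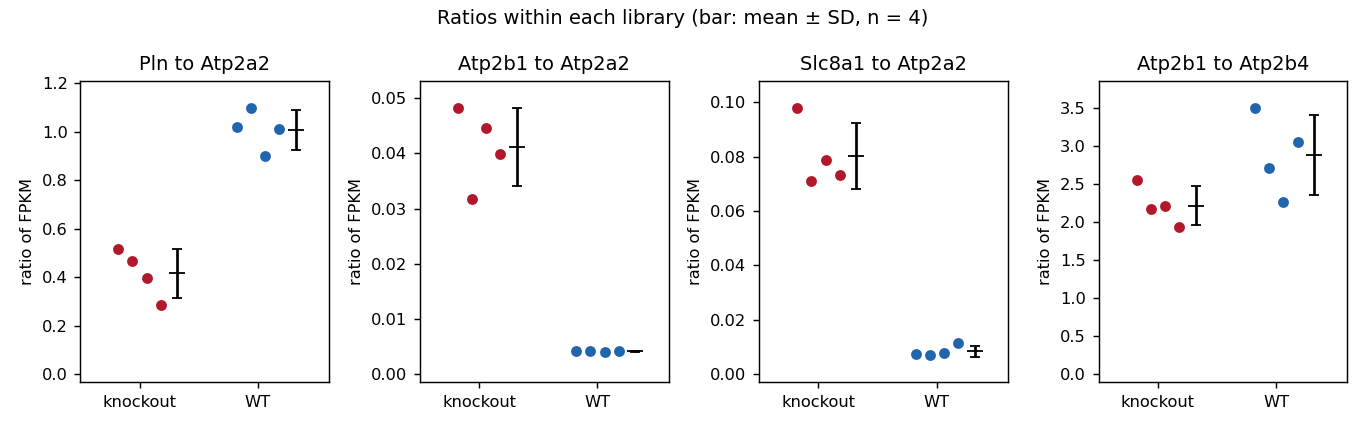
Ratios of FPKM within each library (linear axes) for the 4 knockout (red, left) and 4 WT (blue, right) libraries, with mean ± SD. Pln to Atp2a2 is at 0.283 to 0.517 in the knockout and 0.901 to 1.10 in WT, Atp2b1 and Slc8a1 stand higher against Atp2a2 in the knockout, and Atp2b1 to Atp2b4 overlaps between groups.

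Heart muscle cells express both genes, though the ubiquitous isoform of Atp2a2 is not limited to them, and what other cells contributed was not tested. In whole ventricle, fewer heart muscle cells and less RNA per cell cannot be told apart. Of 10 cardiomyocyte marker genes, 9 were also lower in the knockout and 1, Actn2, was higher, also after rescaling. Over all genes, 16.4% were lower and 44.9% higher as deposited, and 26.9% and 27% after rescaling. The summed level of the 10 markers ran from 18229 to 28260 FPKM in the knockout and from 51052 to 57273 FPKM in WT, and no marker was at 0. The knockout mean of that sum was 41.7% of WT, against 11.2% for Atp2a2 and 4.57% for Pln. Set against this sum, Atp2a2 equalled 1.90, 1.48, 1.35 and 2.12% of it in the knockout libraries and 6.74, 6.18, 6.34 and 5.63% in the WT libraries. For Pln the values were 0.980, 0.686, 0.538 and 0.600% in the knockout libraries, against 6.88, 6.79, 5.71 and 5.70% in the WT libraries. Relative to the summed markers, too, both genes were lower in every knockout library than in any WT library. The markers differ among themselves, with knockout means from 13.9% of WT for Ryr2, near the 11.2% of Atp2a2, to 153% for Actn2. This comparison was added after the data were seen.

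Sln was the member with the most uneven values. It was at 18.6, 9.11, 0.429 and 188 FPKM in the knockout libraries, while all 4 WT libraries are listed at 0. Knockout 4 stood far above the other knockout libraries, and knockout 3 was close to the WT level. No fold is given against a group at 0. In limma the adjusted p was 0.016 with all libraries, 0.0123 without knockout 4 and 0.0729 with library weights, under which it did not pass (0.0014 to 0.0729 over all alternatives). Because Sln reached the minimum through the knockout libraries alone, these p-values add no support for a difference. Relative to Atp2a2, Sln reached 0.0537, 0.0219, 0.00127 and 0.449 in the knockout libraries and 0 in WT, and this ratio was not tested because of the zeros. In knockout 4 Sln (188 FPKM) was above Pln (119 FPKM), and in the other knockout libraries it was below. The gene lies at chr9:53850251-53853849 (mm10).

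Some markers of atrial muscle moved with Sln across the knockout libraries. Of 10 atrial markers 8 were tested, 5 were higher in the knockout (4 after rescaling) and 1, Stard10, was lower. Of the 5, Myl7 reached the minimum through the knockout libraries alone. The shares over all genes were 44.9% higher and 16.4% lower as deposited, and 27% and 26.9% after rescaling. The summed list was 5058 to 7940 FPKM in the knockout and 210 to 400 FPKM in WT, most of it from Nppa, which was at 7296, 7829, 5018 and 5760 FPKM in the knockout libraries and at 188 to 372 FPKM in WT. Without Nppa the sum was 174, 112, 39.2 and 1628 FPKM in the knockout libraries and 21.6 to 28.9 FPKM in WT. The atrial light chain gene Myl7 was at 61.6, 42.6, 2.50 and 726 FPKM in the knockout libraries and at 0 to 0.680 FPKM in WT. Myl4 was at 81.7, 50.8, 19.1 and 781 FPKM in the knockout libraries and at 3.09 to 6.34 FPKM in WT. These 2 genes thus ranked the knockout libraries in the same order as Sln, with knockout 4 highest and knockout 3 lowest, whereas Nppa, highest in knockout 2, and Gja5, highest in knockout 1 (6.92 FPKM, with 4.88 FPKM in knockout 4), did not. Bmp10, a growth factor of the right atrium, was at 6.21 FPKM in knockout 1 and 66.0 FPKM in knockout 4 and is listed at 0 in the other knockout libraries and in all WT libraries. Sln had 9.11 FPKM in knockout 2, where Bmp10 is at 0. The part that atrial RNA had in the Sln values was not tested.

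**Figure D3:**
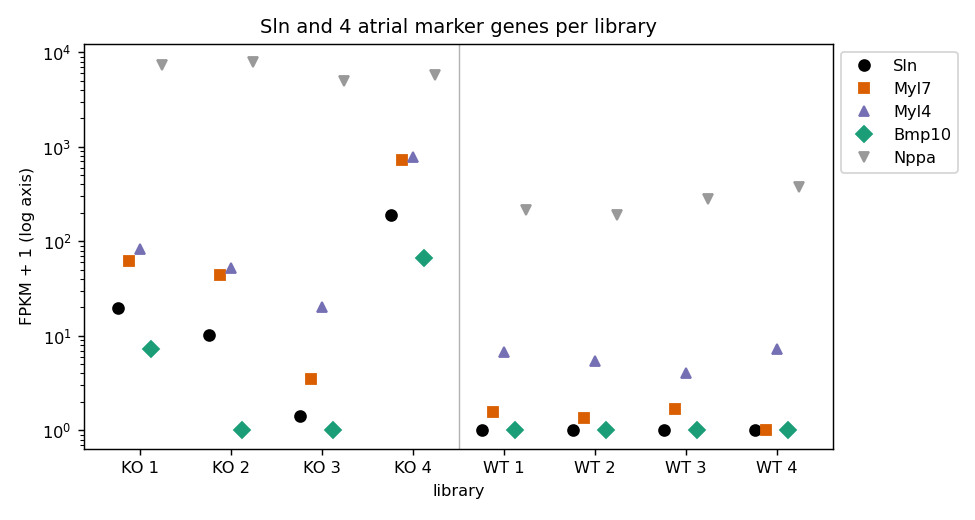
FPKM + 1 (log axis) of Sln and 4 atrial marker genes in each library, knockout (KO) left and WT right of the grey line, where a value of 1 on the axis is a gene listed at 0. Sln, Myl7 and Myl4 are highest in knockout 4 and lowest among the knockout libraries in knockout 3, while Nppa is high in all 4 knockout libraries.

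The other reticulum pump genes were rare in both groups. Atp2a1 (chr7:126445860-126463073), the pump of fast skeletal muscle, was at 0.118, 0.0690, 0.0456 and 0.0857 FPKM in the knockout libraries and at 0.145, 0.320, 0.151 and 0.0711 FPKM in the WT libraries. It was under the minimum, the groups overlapped, and values this low rest on few fragments (exact two-sided permutation p = 0.0857 on FPKM). Of 12 skeletal muscle markers, 4 were tested, of which Tnnt3, Mylpf and Mybpc2 were higher and Tnni2 lower. Of these, Tnnt3, Mylpf and Tnni2 reached the minimum through the group where they were high, so that their differences were built into the selection. The list summed to 38.2 to 63.0 FPKM in the knockout against 8.79 to 14.0 FPKM in WT, most of it from Mybpc2, which averaged 40.1 FPKM in the knockout and 4.55 FPKM in WT, and Myf6 was at 0 in WT. The fast myosins went the other way at levels under the minimum, with knockout means at 7.36% (Myh1), 41.1% (Myh2) and 7.90% (Myh4) of WT. Atp2a3 (chr11:72961169-72993043), found in endothelial and blood cells, was at 6.10, 2.96, 3.52 and 4.32 FPKM in the knockout libraries and at 3.82, 5.79, 6.19 and 4.00 FPKM in the WT libraries. The ranges overlapped, and the log2 change of -0.20 did not pass (limma adjusted p = 0.409, 95% interval from -0.65 to 0.25). After rescaling it was -0.43 (adjusted p = 0.089, 95% interval from -0.86 to 0.01). In the authors' deposited table the same gene is called lower, with a log2 change of -0.52 and a q-value of 0.0115. Beside it, 2 of 8 endothelial markers were higher and 2 lower (1 and 4 after rescaling), with sums of 302 to 416 FPKM in the knockout and 300 to 375 FPKM in WT. Of 10 platelet and leukocyte markers none of the 5 tested passed in limma, with sums of 33.8 to 80.1 FPKM in the knockout and 47.4 to 70.1 FPKM in WT (after rescaling 1, Pf4, was lower). Beside the skeletal, endothelial and blood cell counts, the shares over all genes were 44.9% higher and 16.4% lower as deposited, and 27% and 26.9% after rescaling.

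The plasma membrane pump genes differed far less between the groups than Atp2a2. Atp2b1 (chr10:98915152-99026143), the housekeeping pump of most cells, was at 16.7, 13.2, 15.1 and 16.7 FPKM in the knockout libraries, against 15.8, 13.1, 13.5 and 13.3 FPKM in the WT libraries. Its groups overlapped. The log2 change was 0.14 (limma adjusted p = 0.241, 95% interval from -0.08 to 0.35), and -0.13 after rescaling, so that its sign followed the scaling. Atp2b4 (chr1:133702674-133753747) was at 6.54, 6.10, 6.80 and 8.62 FPKM in the knockout libraries, against 4.51, 4.79, 5.97 and 4.34 FPKM in the WT libraries. The groups did not overlap, though knockout 2 and WT 3 nearly met. Means were 7.01 ± 1.11 FPKM in the knockout and 4.90 ± 0.733 FPKM in WT (SD, n = 4 each), or 0.44 higher in log2, with an SE of 0.121 (limma adjusted p = 0.0107). After rescaling it was 0.20 (adjusted p = 0.173, with 0.00567 to 0.173 over all alternatives), and in the authors' deposited table it is 0.23 with a q-value of 0.188, neither of which passed. The ratio of Atp2b1 to Atp2b4, free of scaling, was 2.22 ± 0.253 in the knockout and 2.89 ± 0.527 in WT (SD, n = 4 each), with overlapping groups (exact two-sided permutation p = 0.0571, also 0.0571 adjusted over the 5 ratios). Both pumps are also made by fibroblasts and smooth muscle. Of 8 fibroblast markers 6 were higher (4 after rescaling), with sums of 839 to 1414 FPKM in the knockout and 561 to 664 FPKM in WT. Of 8 smooth muscle markers 2 were higher and 2 lower, with sums of 695 to 990 FPKM in the knockout and 254 to 410 FPKM in WT. The difference in this sum came mostly from Cnn1, which averaged 331 FPKM in the knockout and 1.28 FPKM in WT, and Tagln, at 157 FPKM in the knockout and 28.0 FPKM in WT, while Acta2 (236 FPKM in the knockout and 251 FPKM in WT) did not pass. For both lists, the shares over all genes were 44.9% higher and 16.4% lower as deposited, and 27% and 26.9% after rescaling. What fibroblasts and smooth muscle contributed was not tested.

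**Figure D4:**
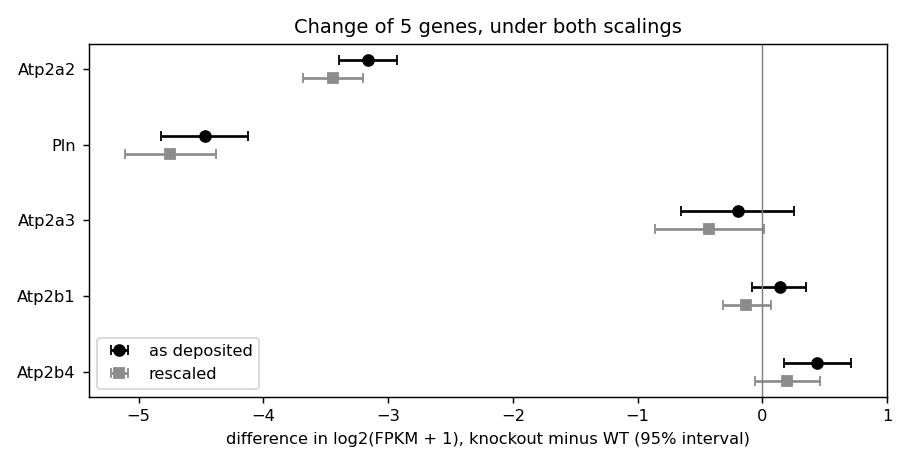
Difference in log2(FPKM + 1), knockout minus WT, with its 95% limma interval for 5 of the genes, from FPKM as deposited (black circles) and after rescaling (grey squares). Atp2a2 and Pln lie near -3.16 and -4.47, while Atp2a3, Atp2b1 and Atp2b4 lie within 1 of 0 and the last passed as deposited alone.

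With Atp2a2 lower, the other routes of calcium removal made up more of the pump message. Summed over the 5 pump genes, the level was 407 ± 43.7 FPKM in the knockout and 3422 ± 271 FPKM in WT (SD, n = 4 each). Atp2a2 was 93.4 ± 1.15% of this sum in the knockout and 99.3 ± 0.0538% in WT, and the plasma membrane pumps were 5.57 ± 0.809% in the knockout and 0.551 ± 0.0113% in WT. The ratio of Atp2b1 to Atp2a2 was 0.0483, 0.0318, 0.0447 and 0.0399 in the knockout libraries and 0.00390 to 0.00422 in WT, a 9.93-fold difference (exact two-sided permutation p = 0.0286, 0.0357 adjusted over the 5 ratios). The exchanger gene Slc8a1 showed the same shift relative to Atp2a2. It was at 33.9, 29.7, 26.6 and 30.7 FPKM in the knockout libraries and at 27.2, 22.5, 26.9 and 36.5 FPKM in WT, with a log2 change of 0.11 that did not pass (limma adjusted p = 0.516) and turned to -0.16 after rescaling. Its ratio to Atp2a2 was 0.0803 ± 0.0123 in the knockout and 0.00836 ± 0.00198 in WT (SD, n = 4 each), or 9.70-fold higher (same exact p and adjusted p). The ratio of Atp2a1 to Atp2a2 differed 4.50-fold with the same p-values, from levels of Atp2a1 that rest on few fragments. These ratios share Atp2a2, so they are not separate evidence of one another. Neither Atp2b1 nor Slc8a1 passed by itself, so their ratios restate the fall of Atp2a2 and add no result to it.

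By level per length, the order in the knockout was Atp2a2, Pln, Sln, Atp2b1, Atp2b4, Atp2a3 and Atp2a1, with Sln reaching from 0.429 to 188 FPKM and so overlapping every gene other than Atp2a2 and Atp2a1, and with Atp2b4 and Atp2a3 close to each other (6.10 to 8.62 and 2.96 to 6.10 FPKM). In WT it was Pln, Atp2a2, Atp2b1, Atp2a3, Atp2b4, Atp2a1 and Sln, where Pln and Atp2a2, and likewise Atp2a3 and Atp2b4, did not differ beyond their spread. The pump genes resemble each other, and reads could be shared. In GENCODE M21 the coding sequences of Atp2a2 and Atp2a1 were 75.3% identical over aligned bases, and those of Atp2a2 and Atp2a3 70.4%. The longest exact run that Atp2a2 shared with either was 44 bases, and the longest between Atp2b1 and Atp2b4 was 26 bases. How fragments matching more than 1 gene were counted is unknown from the labels, and the low values of Atp2a1 are uncertain for that reason too.

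Peptides related to phospholamban were taken as a list of 4 genes, of which 2 were tested. Mrln had 0.288, 0, 0.551 and 0.260 FPKM in the knockout libraries and 3.25, 1.92, 2.63 and 2.31 FPKM in WT, a log2 difference of -1.47 (limma adjusted p = 8.45e-05). It reached the minimum through the WT libraries alone, so that a difference was built into its selection. It was a rare message in both groups, and in the authors' deposited table its q-value of 0.0824 did not pass. 1810037I17Rik, listed by RefSeq with the synonym Aln (another-regulin, an inhibitor of SERCA outside muscle), rose. It was at 93.9, 88.0, 110 and 84.2 FPKM in the knockout libraries and at 42.0, 35.8, 38.6 and 41.7 FPKM in the WT libraries, so that the groups were clearly apart. The log2 change was 1.23 ± 0.0985 (SE, limma adjusted p = 1.01e-05), and 0.95 after rescaling. In the knockout its mean of 94.1 ± 11.6 FPKM was of the same order as that of Pln, whereas in WT its 39.5 ± 2.93 FPKM (SD, n = 4 each) was a small fraction of Pln. Smim6 (endoregulin) was under the minimum, and Strit1 was not analysed here.

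Proteins that bind the pump or hold calcium in the reticulum went both ways, with 5 of 11 genes higher and 4 lower (4 and 4 after rescaling). Of all genes, 44.9% were higher and 16.4% lower as deposited, and 27% and 26.9% after rescaling. The median log2 change of the list was 0.17, against 0.25 over all genes. Hrc, a calcium-binding protein of the reticulum lumen that binds SERCA2, was at 90.2, 119, 102 and 65.6 FPKM in the knockout libraries and at 466, 417, 464 and 505 FPKM in WT. It fell 4.91 times, the steepest fall of the list (log2 change -2.31, limma adjusted p = 5.34e-06). S100a1, which raises SERCA activity, Tmx1 and the phospholamban anchor Akap7 fell by 0.45, 0.46 and 0.64 on the log2 scale. The calsequestrins, the main calcium stores of the lumen, rose: Casq1, the skeletal form, averaged 163 ± 48.9 FPKM in the knockout and 31.9 ± 10.6 FPKM in WT, and Casq2, the cardiac form, 891 ± 66.6 FPKM in the knockout and 528 ± 87.6 FPKM in WT (SD, n = 4 each). The skeletal muscle markers given beside Atp2a1 were mixed in direction, with Mybpc2 higher and Tnni2 and the fast myosins lower, and their part in the Casq1 values was not tested. Hax1, which binds phospholamban, rose by 0.88 on the log2 scale and Calr, the chaperone calreticulin, by 0.60. Srl, or sarcalumenin, was at 294 to 475 FPKM in the knockout and 310 to 383 FPKM in WT and did not pass (limma adjusted p = 0.318).

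Of 17 genes for kinases and phosphatases that act on phospholamban or on calcium signalling, 8 rose and 3 fell (7 and 5 after rescaling). The median log2 change was 0.46, against 0.25 over all genes. As deposited, these counts were near the shares over all genes, of which 44.9% were higher and 16.4% lower. After rescaling, 27% of all genes were higher and 26.9% lower. Among the kinases, the protein kinase A catalytic gene Prkaca fell by 0.39 on the log2 scale and Prkacb rose by 0.75, while Prkaca stayed the more abundant (86.8 to 128 FPKM against 29.2 to 41.1 FPKM of Prkacb in the knockout, and 121 to 156 FPKM against 19.4 to 21.0 FPKM in WT). Camk2d, the main cardiac CaMKII gene, was at 68.6, 65.5, 56.3 and 52.0 FPKM in the knockout libraries, against 53.8, 44.1, 55.8 and 54.2 FPKM in WT, and with a difference of 0.21 in log2 it did not pass (limma adjusted p = 0.122). Camk2a, known mainly from neurons, fell 2.28 times from a low level and Camk2g rose by 0.58 on the log2 scale. On the phosphatase side, Ppp1r3a, which targets protein phosphatase 1 to glycogen and the reticulum, averaged 15.4 ± 1.50 FPKM in the knockout and 38.0 ± 2.91 FPKM in WT (SD, n = 4 each). Ppp1r2, inhibitor 2 of that phosphatase, rose 2.29 times, and the catalytic gene Ppp1cc rose by 0.56 on the log2 scale, while Ppp1ca and Ppp1cb did not pass. Ppp1r1a, or inhibitor 1, was at 1.93 to 4.12 FPKM in the knockout and 0.778 to 2.55 FPKM in WT and did not pass (limma adjusted p = 0.122).

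Among 13 other genes of calcium extrusion and the Golgi pumps, 7 were tested, of which 5 rose and 1 fell, also after rescaling, where 44.9% of all genes were higher and 16.4% lower as deposited and 27% and 26.9% after rescaling. Calm2 and Calm3, which encode calmodulin, an activator of the plasma membrane pumps, rose by 1.01 and 1.09 on the log2 scale. Calm3 was at 198, 141, 169 and 175 FPKM in the knockout libraries and at 84.0, 73.3, 83.0 and 77.5 FPKM in the WT libraries, with no overlap (limma adjusted p = 2.85e-05). Neuroplastin (Nptn) and basigin (Bsg), which form complexes with these pumps, split: Nptn rose 2.05 times and Bsg fell by 0.60 on the log2 scale. The Golgi pump gene Atp2c1 rose by 0.78. The remaining plasma membrane pump genes Atp2b2 and Atp2b3 were under 0.166 FPKM or at that value in every library. Slc8a2, an exchanger of neurons, was at 1.58, 2.02, 1.50 and 1.14 FPKM in the knockout libraries and at 0.214 to 0.305 FPKM in WT, with no overlap, but was under the minimum and so not tested.

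**Figure D5:**
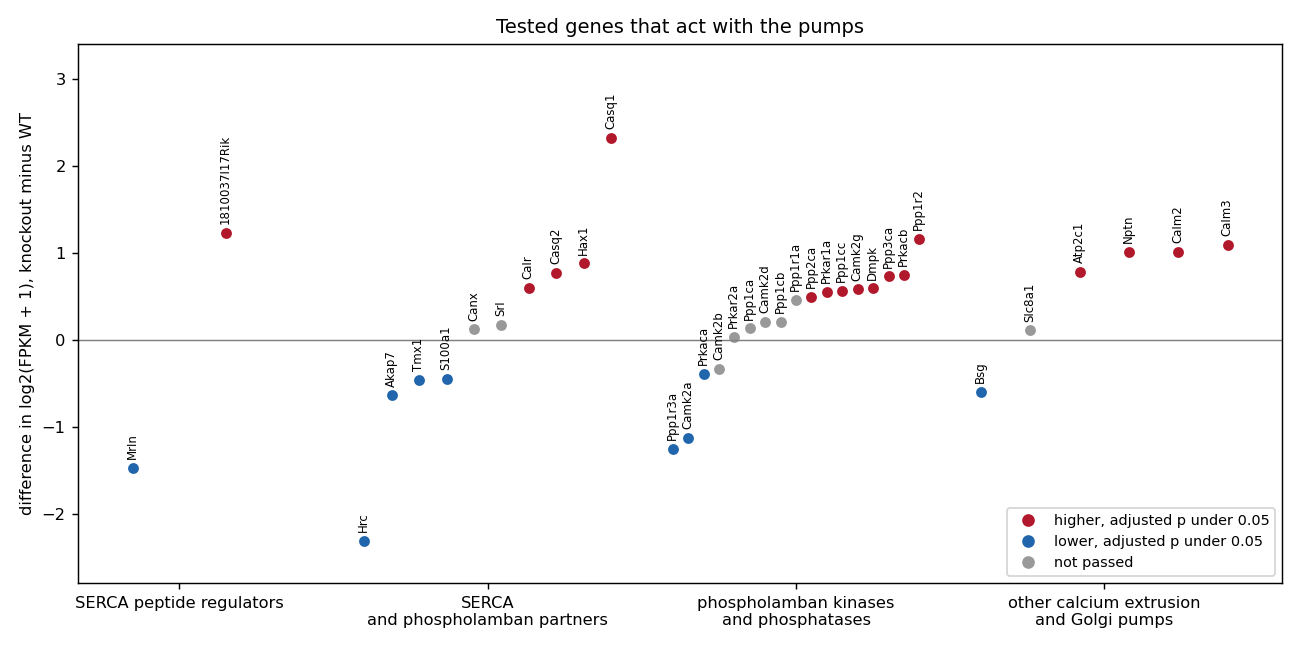
Difference in log2(FPKM + 1), knockout minus WT, of tested genes in the 4 lists (2 genes are not shown), coloured by its call in limma (red higher, blue lower, grey not passed). Casq1 at 2.32 and Hrc at -2.31 are the extremes of those shown, and Calm2 and Calm3 lie together near 1.

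The genes whose profile over the 8 libraries lay closest to each of the 2 falling members were found by the root mean square difference of log2(FPKM + 1), each gene set relative to its WT mean. For Atp2a2 these were Myh7b, Tmem82, Aqp4, Klhl38 and Asb15, at differences of 0.144 to 0.255. All 5 are far less abundant than Atp2a2, with WT means of 9.79 to 20.6 FPKM, where the added 1 FPKM limits how far a log2 value can fall. For Pln they were Asb14, Ogdhl, Rpl3l, Lrtm1 and Mb, at differences of 0.147 to 0.358. Mb, the oxygen store myoglobin, is the member of that group with a level above that of Pln, at 715 ± 132 FPKM in the knockout and 12066 ± 483 FPKM in WT (SD, n = 4 each). Likeness of profile is a description over these 8 libraries, of which most is the step between the groups. Myh7b, Tmem82, Aqp4, Klhl38 and Ogdhl averaged under 1 FPKM in the knockout and reached the minimum through the WT libraries alone. A difference was thus built into the selection of these genes.

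Promoter sequence was at hand for 5 of the 7 genes, and that of the gene with the steepest fall is set beside that of a pump gene that did not pass. Both are the 250 bases before the RefSeq start (GRCm38.p6), 5′ to 3′ on the plus strand, at chr10:53337436-53337685 for Pln and chr10:98914902-98915151 for Atp2b1, at the start that matches the deposited locus. Capitals mark a match to any of 4 motifs searched on both strands: AGGTCA (a nuclear receptor half-site), CATTCC (the TEAD motif), AGATAA (the motif of GATA factors) and CTA and TAG 4 bases apart (the MEF2 core).
Pln: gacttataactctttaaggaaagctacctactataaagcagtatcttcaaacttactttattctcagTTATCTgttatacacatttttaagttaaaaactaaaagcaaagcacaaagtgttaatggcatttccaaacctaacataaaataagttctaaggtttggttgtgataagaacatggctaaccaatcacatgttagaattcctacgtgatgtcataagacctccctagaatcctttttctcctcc
Atp2b1: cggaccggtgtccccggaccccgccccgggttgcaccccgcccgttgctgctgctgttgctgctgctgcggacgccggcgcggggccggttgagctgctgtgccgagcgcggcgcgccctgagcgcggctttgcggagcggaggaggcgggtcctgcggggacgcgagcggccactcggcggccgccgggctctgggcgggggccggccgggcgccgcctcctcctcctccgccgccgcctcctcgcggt
The Pln window had 32.8% G and C and 1 CpG, and the Atp2b1 window 80.8% and 41 CpGs, against medians of 52.4% and 6 over 32851 RefSeq promoters of this length. Pln held 1 match, AGATAA on the minus strand at position -183 from the start, and Atp2b1 held none. Among the other promoters at hand, that of Atp2b4, which did not fall, held the same AGATAA and a CATTCC, that of Atp2a1 held AGGTCA and that of Atp2a3 held none. Windows with a match made up 14% of all promoters for AGGTCA, 12.6% for CATTCC, 9.99% for AGATAA and 3.2% for the MEF2 core. No matches overlapped. A match in such a window is a run of letters and not a binding site, and its absence says nothing of the factor.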

How the data were processed

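Ventricular poly(A) RNA was sequenced from 4 knockout and 4 WT samples. The submitters' processing notes name mm10, a TopHat application (version 1.0.0), Cufflinks and Cuffdiff, with no further settings. The annotation, read length and strand setting are unknown from these sources. A deposited table holds FPKM for each gene in each library, per the file headers, and another the authors' comparison, with pooled FPKM, q-values, p-values and a log2 fold. Of 23847 rows, 312 hold no number in any library, and the 0.001 FPKM that stands for 0 was set back to 0. Sample titles gave the groups and the replicate numbers.

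From there, limma (version 3.58.1, R 4.3.3) with an intensity trend was run on log2(FPKM + 1) for genes averaging 1 FPKM or more, as a two-sided test over all 11975 genes, after the same steps were tested on simulated data. The simulation changed a small share of the genes, with no shift of the median gene, so it does not test calls under the shift seen here. Standard errors and intervals are limma's. FPKM are shares of a library, so each value falls when other genes take more. Ratios were compared by exact permutation of their log2 values, and 5 of 6 could be, since Sln is listed at 0 in WT. The 4 partner lists and 7 marker lists, like the members, were chosen with earlier results of these data known. Named genes were the members, Med1, Slc8a1, up to 4 called genes of largest change per list, and the 5 closest profiles each for Atp2a2 and Pln (predicted genes and joined loci left out). In the partner lists 2 genes count in the totals and are not reported here by name. Other list genes and all marker genes that are named were chosen after their values were seen. Alternatives were a pseudocount of 0.1, a minimum of 0 or 5 FPKM, median-of-ratios and quantile scaling, limma without trend, with robust variances or library weights, a replicate block, and leaving out each library in turn. Coding sequences come from GENCODE M21 and promoters from RefSeq (GRCm38.p6, the assembly of mm10).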

Additional observations from a re-analysis of the deposited data

Results flagged for a closer look

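In a group of 4 libraries a value was listed here when its gap to the nearest library, divided by the range of the group, was above Dixon's critical value at 95%. Of 78 groups looked at, 5 met this, where chance gives about 1 in 20. In the knockout, Sln was at 188 FPKM in knockout 4 (0.903 of the range), and the ratio of Sln to Atp2a2 was 0.449 in the same library (0.883), where the atrial markers Myl7, Myl4 and Bmp10 were also highest, while Nppa was highest in knockout 2 and Gja5 in knockout 1. Among WT libraries, Atp2b1 was at 15.8 FPKM in WT 1 (0.842), within the knockout range of 13.2 to 16.7 FPKM. Klhl38, which had a profile close to that of Atp2a2, was at 24.8 FPKM in WT 1 (0.897). The ratio of Slc8a1 to Atp2a2 was 0.0113 in WT 4 (0.848), still below every knockout library.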

How the results depend on the processing

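The falls of Atp2a2 and Pln passed under every alternative run, with log2 changes from -3.44 to -2.77 for Atp2a2 and from -4.75 to -4.26 for Pln. Atp2a3 passed under none (-0.43 to -0.08). Median-of-ratios and quantile scaling gave 3237 and 3437 genes higher and 3223 and 3066 lower, against 5372 and 1964 as deposited. Under the same scalings Atp2b4 was at 0.20 and 0.22 and did not pass, and the sign turned for Atp2b1 (-0.13 and -0.12) and Slc8a1 (-0.16 and -0.16), neither of which passed under any. Library weights gave Sln a difference of 2.28 (limma adjusted p = 0.0729), against 3.93, a value that depends on the pseudocount (6.84 with 0.1 FPKM). The Sln difference was 2.71 without knockout 4 and 5.06 without knockout 3. Because Sln reached the minimum through the knockout libraries alone, these values are no check on its direction. With 1 library left out, log2 ratio differences ran from -1.43 to -1.14 for Pln to Atp2a2, from 1.84 to 2.57 for Atp2a1, from 3.23 to 3.43 for Atp2b1 and from 3.18 to 3.43 for Slc8a1, where 3 against 4 can give no exact p below 0.0571. With the replicate block they were -1.31, 2.17, 3.31 and 3.28 (sign-flip exact p = 0.125, the smallest possible). No pairing by replicate number was visible: same-numbered deviations correlated at 0.14, 0.033, -0.041 and -0.014, and not every library correlated best with its own number. Whether libraries were paired in the experiment is unknown from the labels. The replicate block gave 5089 and 1867 calls and changed no call of a member. Atp2a3 had no value at a minimum of 5 FPKM. Levels near the bottom, as for Atp2a1 and Mrln, rest on few fragments, and this limits their precision.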
